A study of Mus musculus with 12 samples.

Results

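The 42 genes described here encode the proteins that steer splice-site choice in pre-mRNA and the kinases that act on them. They comprise 10 SR proteins, 2 TRA2 proteins, 4 CLK kinases, 19 hnRNP and PTB proteins and 7 SR-related proteins. They were taken by name from the 55401 genes of a count table, with earlier results of these data known. Each name matched 1 row, and all 42 passed the filter on low counts, which kept 21239 genes.

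The libraries were RNA-seq of wild-type (WT) mouse Th17 cells, the IL-17-producing helper T cell lineage, which had been derived from naive T cells of lymph nodes. Cells were exposed for 4 h to Kira8, to Stattic or to Kira8+Stattic, and the group None is listed without an inhibitor. Kira8 is an inhibitor of IRE1alpha, a sensor of unfolded proteins in the endoplasmic reticulum, and Stattic is used as an inhibitor of STAT3, a transcription factor of the Th17 programme. Each group had 3 libraries, and the series compared the inhibitors in these cells. The labels state neither doses, nor the age of the mice, nor whether None received solvent. They also leave unstated whether replicates were separate cultures or animals, so p-values measure the spread between these libraries, which may be technical.

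A pair of libraries, Kira8 replicate 2 and Stattic replicate 2, differed from the other 10 by measures that involve no comparison of treatments. They held 19.8 M and 9.28 M counts, with 61.5% and 10.7% of them mitochondrial, against 51.7 M to 85.9 M and 3.38% to 5.22% in the other 10. Their Spearman correlation with the 10 was 0.413 to 0.452 and 0.356 to 0.394, against 0.889 to 0.993 among the 10. The 42 genes took up 0.108% and 1.37% of their counts, against 1.5% to 2.01% elsewhere, and in Stattic replicate 2 Hnrnpu alone stood at 8570 CPM (counts per 1000000 counts of a library), against 753 to 1560 CPM in the other 10. The pair was left out on measures of the whole library, such as depth and mitochondrial share, and not on the 42 genes. Results are from the 10 libraries, with 2 libraries each for Kira8 and Stattic and 3 each for Kira8+Stattic and None. Values with all 12 are given for the genes the results turn on.

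SR proteins carry RNA-recognition domains and a tail rich in arginine and serine. They bind exons and recruit the spliceosome, and the phosphorylation of that tail by CLK and SRPK kinases sets where they sit in the nucleus and whether they act. Proteins of the hnRNP class coat nascent RNA and often, though not always, hold exons out of the mRNA. Many of these genes limit their own output through exons or introns that carry premature stop codons and send the transcript to nonsense-mediated decay. In mammalian cells heat shock removes phosphate from SR proteins and slows splicing. Clk1 transcripts are known to be held in the nucleus with introns unspliced and to be released under such stress. In T cells, hnRNP L, hnRNP LL and PTB are known as regulators of the variable exons of CD45.

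Promoter windows were examined because heat shock genes rose in Stattic, and the windows printed are those of Tra2b, Tra2a and Clk4, with that of the heat shock gene Hspa1b for comparison. These are the genes of the 42 that rose in Stattic and held a motif present in under 2% of all windows, a choice made after the values were seen. The RefSeq table (GRCm38.p6) held windows of 250 bases before to 50 after a start site for 38 of the 42 genes, 52 windows in all. Each sequence is written 5′ to 3′ on the gene's strand, with the motif in capitals.
Tra2b, chr16:22266177-22266236, minus strand, heat shock element: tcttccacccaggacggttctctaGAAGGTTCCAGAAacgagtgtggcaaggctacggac
Hspa1b, chr17:34959309-34959368, minus strand, head-to-head heat shock units: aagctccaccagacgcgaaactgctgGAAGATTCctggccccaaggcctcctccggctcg
Tra2a, chr6:49264053-49264112, minus strand, cyclic AMP response element: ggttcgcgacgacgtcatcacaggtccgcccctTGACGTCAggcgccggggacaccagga
Clk4, chr11:51263023-51263082, plus strand, cyclic AMP response element: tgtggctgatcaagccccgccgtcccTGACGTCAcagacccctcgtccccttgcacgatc

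The full heat shock element, searched on both strands as GAANNTTC followed by NNGAA, was in 0.603% of all 32851 promoter windows and in those of 2 of the 38 genes, Tra2b and Hnrnpa2b1. Its shorter head-to-head form, GAANNTTC, which lies inside the full element, was in 7.86% of all windows and in those of 5 of the 38 genes, Hnrnpa2b1, Hnrnpf, Hnrnpl, Srsf9 and Tra2b. The tail-to-tail form, TTCNNGAA, also part of the full element, was in 8.52% of windows and in 3 of the 38 genes. TGACGTCA was in 1.79% of windows and in Clk4 and Tra2a, CACGTG in 7.15% and 7 genes, and CCAAT in 37.4% and 23 genes. A gene was counted if any of its windows matched. Of the 52 windows of the 38 genes, 3 held the full element, 6 the head-to-head form and 4 the tail-to-tail form. TGACGTCA was in 2 of the 52, CACGTG in 7 and CCAAT in 27. The windows of the heat shock genes Hspa1a and Hspa1b held the head-to-head form but not the full element. That of Dnajb1, also a heat shock gene, held no heat shock form. A match is a description of these letters, and among the 5 genes with the shorter heat shock form the Stattic values went in both directions.

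The annotation of the 42 genes (GENCODE, mouse GRCm38) was dense in transcripts other than the main coding form. A transcript annotated as a target of nonsense-mediated decay was listed for 33 of the 42 genes (78.6%), against 26.7% of the other 14715 protein-coding genes tested. A transcript with a retained intron was listed for 35 of the 42 (83.3%) against 54.5%, and the median number of transcripts per gene was 10 against 5. All 4 CLK genes and both TRA2 genes had both kinds. The counts are per gene, so a change below may be in the main coding transcript, in one of these other transcripts or in both, and these cannot be told apart here.

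Heat shock genes moved strongly with Stattic in the same libraries. Hspa1a and Hspa1b, which encode the inducible HSP70 chaperone, together held 0.025% and 0.0521% of counts in Kira8, 2.23% and 3.74% in Stattic, and 2.18%, 3.71% and 4.93% in Kira8+Stattic, against 0.00103%, 0.00976% and 0.014% in None. Their near-identical sequences make the split between them uncertain. Dnajb1, an HSP40 co-chaperone, had 101 and 128 CPM in Kira8, 766 and 1010 CPM in Stattic, and 867, 1280 and 1590 CPM in Kira8+Stattic, against 69.1, 78.4 and 78.7 CPM in None. It rose by 3.56 ± 0.24 (log2 ± SE) in Stattic and by 4.05 ± 0.24 in Kira8+Stattic, while its value of 0.60 in Kira8 missed the threshold (adjusted p = 0.0962). Of 11 inducible heat shock genes, 9 rose in Stattic and 9 in Kira8+Stattic, and in Kira8 2 rose and 1 fell. The shares that rose or fell among all genes tested were 39%, 40.8% and 19.3% in that order.

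Markers of Th17 and T cells and of other cells also differed between groups. The 7 Th17 and T cell markers reported, Il17a, Il17f and Cd4 among them, were present, and their summed level was 918 to 1040 CPM in Kira8, 1120 to 1360 CPM in Stattic and 1120 to 1180 CPM in Kira8+Stattic, against 1320 to 3220 CPM in None. Of these 7, 0 were called higher and 4 lower in Kira8, 1 higher and 4 lower in Stattic, and 0 higher and 4 lower in Kira8+Stattic. The 8 B cell markers summed to 51.4 to 60 CPM in Kira8, 17.1 to 32.1 CPM in Stattic and 20.9 to 46.2 CPM in Kira8+Stattic, against 149 to 166 CPM in None, with 5, 8 and 7 of the 8 called lower. The 8 CD8 T and NK cell markers summed to 77.9 to 102 CPM in Kira8, 178 to 246 CPM in Stattic and 92.5 to 157 CPM in Kira8+Stattic, against 272 to 439 CPM in None. Of the 7 tested, 0 were called higher and 5 lower in Kira8, 1 higher and 1 lower in Stattic, and 1 higher and 4 lower in Kira8+Stattic. The gene called higher in both groups with Stattic was Klrb1c (log2 3.73 and 2.89), and Ncr1, which defines NK cells, was at 0 in every library of the 10 other than None replicate 1. The 8 myeloid markers summed to 54.9 to 56.3 CPM, 29.2 to 42.7 CPM and 17.1 to 95.9 CPM in the 3 treated groups in that order, against 23.9 to 41.1 CPM in None. The part of these cells in the results below was not tested. In bulk RNA, fewer cells of a type and less RNA per cell cannot be told apart. Among all genes tested, 9.7%, 20.1% and 20.8% were called higher and 9.59%, 18.9% and 20% lower in Kira8, Stattic and Kira8+Stattic.

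Across the 42 genes, calls went in both directions, at a rate close to or below that among other genes of similar level in the comparisons with None. A gene was called where its Benjamini-Hochberg adjusted p in edgeR's quasi-likelihood test, over all 21239 genes, was below 0.05. In Kira8 against None, 5 genes rose and 10 fell, 35.7% of the 42, beside 19.3% of all genes tested, of which 9.7% were higher and 9.59% lower. In Stattic against None 11 rose and 13 fell, 57.1%, beside 39% of all genes, of which 20.1% were higher and 18.9% lower. In Kira8+Stattic against None 11 rose and 11 fell, 52.4%, beside 40.8% of all genes, of which 20.8% were higher and 20% lower. A mean at or above that of the lowest of the 42 (Srsf9, 33.7 CPM) was found for 5620 genes. These are termed genes of similar level, which sets a floor and no upper bound. Their shares called were 35.7%, 57% and 59.8%, so the number of calls alone was not a result about splicing factors. The median log2 change of the 42 was -0.07, -0.23 and -0.11, against 0, 0.08 and 0.09 over all genes. Scaling by library size alone gave 7 higher and 18 lower in Stattic and 9 higher and 16 lower in Kira8+Stattic, and it moved the all-gene median in Stattic to -0.08. No gene called under the main scaling changed sign there. The 3 comparisons share the None libraries, so their values stand side by side and their likeness is not a separate result.

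**Figure D1:**
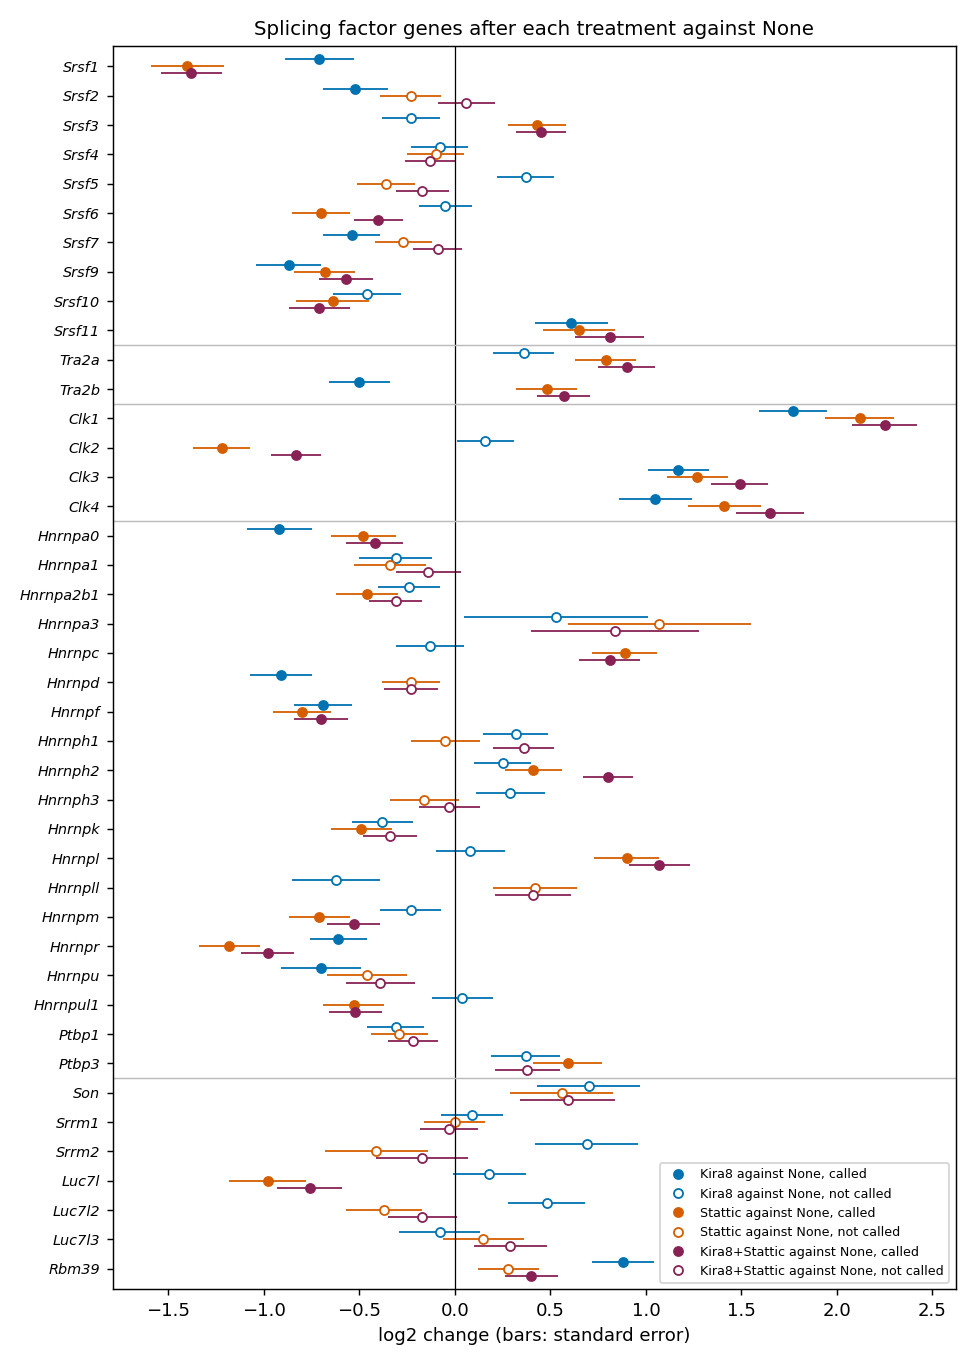
Log2 change of each of the 42 genes in Kira8, Stattic and Kira8+Stattic against None, with genes grouped by class down the page, bars of 1 SE and filled points for called genes. Clk1 lies furthest to the right, at 1.77, 2.12 and 2.25, and Srsf1 in Stattic and Kira8+Stattic lies furthest to the left, at -1.40 and -1.38.

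With all 12 libraries in the edgeR fit, 0 of the 42 genes were called in each of the 7 comparisons made. Of all 20993 genes tested there, 0, 65 and 57 were called in Kira8, Stattic and Kira8+Stattic against None. The common dispersion was then 1.01, against 0.143 with 10 libraries. At an unadjusted p below 0.05 that fit gave 0, 4 and 2 of the 42 in Kira8, Stattic and Kira8+Stattic against None. Among all 20993 genes it gave 2689, 4110 and 2420. A limma voom fit of the 12 libraries that weights each library by its quality called 16, 16 and 21 of the 42. Its calls among all 20993 genes were 4672, 7778 and 9959.

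The CLK kinases split into a trio that was higher in every treated library and Clk2, which fell with Stattic. CLKs are nuclear kinases that phosphorylate SR proteins. Clk1 (chr1:58410189-58424066) had 613 and 621 CPM in Kira8, 824 and 756 CPM in Stattic, and 736, 930 and 923 CPM in Kira8+Stattic, against 150, 176 and 218 CPM in None. Every treated library lay above every None library. Clk1 rose 3.40-fold in Kira8 (log2 1.77 ± 0.18, adjusted p = 1.14e-04), 4.36-fold in Stattic (2.12 ± 0.18, adjusted p = 7.07e-06) and 4.76-fold in Kira8+Stattic (2.25 ± 0.17, adjusted p = 2.09e-06).

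Clk4 (chr11:51261730-51281766), the closest relative of Clk1, had 160 and 175 CPM in Kira8, 208 and 221 CPM in Stattic, and 205, 267 and 288 CPM in Kira8+Stattic, against 64.1, 86.2 and 91.5 CPM in None. It rose by 1.05 ± 0.19, 1.41 ± 0.19 and 1.65 ± 0.18 on the log2 scale, with the groups again not overlapping. Clk3 (chr9:57750624-57765860) had 183 and 200 CPM in Kira8, 192 and 216 CPM in Stattic, and 208, 246 and 262 CPM in Kira8+Stattic, against 76.7, 83.3 and 94.3 CPM in None. Its log2 changes were 1.17 ± 0.16, 1.27 ± 0.16 and 1.49 ± 0.15, all called. Of the exonic length of Clk3, 15.2% overlaps Edc3 on the opposite strand, and since no source used here says whether counting used strand, reads of the overlap are uncertain.

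Clk2 (chr3:89164795-89176921) behaved differently. It had 85.8 and 93.5 CPM in Kira8, 32 and 37.2 CPM in Stattic, and 47.7, 47.9 and 40.5 CPM in Kira8+Stattic, against 80.6, 76.6 and 84.4 CPM in None. All 5 libraries with Stattic lay below all libraries without it. Clk2 fell 2.33-fold in Stattic (log2 -1.22 ± 0.15, adjusted p = 8.61e-05) and 1.77-fold in Kira8+Stattic (-0.83 ± 0.13, adjusted p = 3.7e-04). Its value in Kira8 was 0.16 ± 0.15 and missed the threshold. Summed over the 4 kinases, CLK transcripts held 1040 and 1090 CPM in Kira8, 1260 and 1230 CPM in Stattic, and 1200, 1490 and 1510 CPM in Kira8+Stattic, against 371, 422 and 488 CPM in None.

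All CLK calls against None held in each of the 10 fits that left out 1 library. In the 2 outlying libraries Clk1 had 29 CPM (Kira8 replicate 2) and 218 CPM (Stattic replicate 2), and Clk4 had 7.17 CPM and a count of 0. With all 12 libraries the log2 change of Clk1 was 1.32 in Kira8 (adjusted p = 0.392) and 1.74 in Stattic (adjusted p = 0.195). Under the quality-weighted fit it was 1.68 and 2.02 and was called in both, whereas Clk4 at 0.98 and 1.20 was not called (adjusted p = 0.0928 and 0.0584). The 12-library values in Stattic were 0.72 for Clk3 and -1.60 for Clk2, not called, and both were called with quality weights at 1.17 and -1.25.

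**Figure D2:**
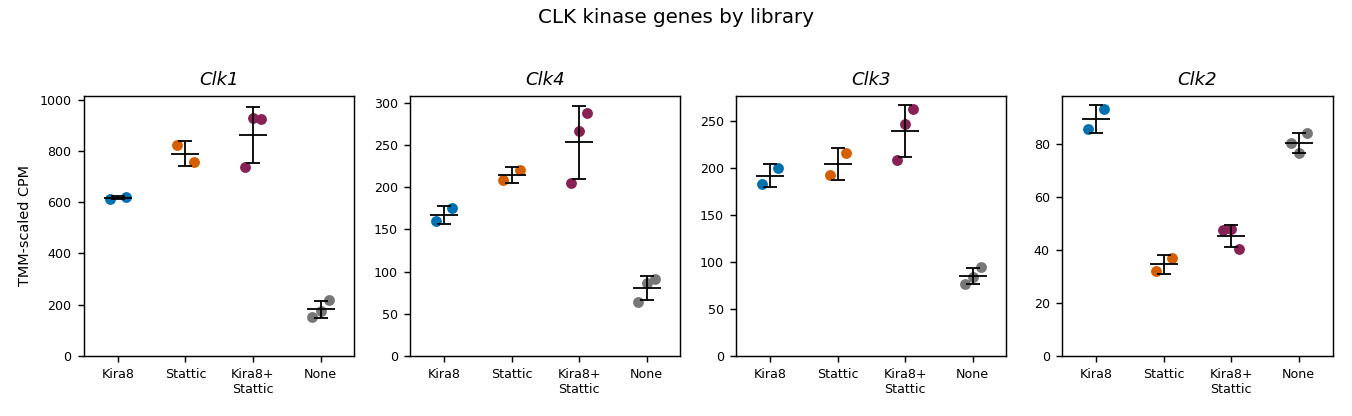
CPM of Clk1, Clk2, Clk3 and Clk4 in each of the 10 libraries (linear axes from 0), with Kira8, Stattic and Kira8+Stattic left of None, a line at each group's mean and bars of 1 SD. Clk1 runs from 613 to 930 CPM in the treated libraries and from 150 to 218 CPM in None, and Clk2 is lowest, at 32 to 47.9 CPM, in the 5 libraries that received Stattic.

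Per kilobase of exon, the CLK levels changed rank. In None, Clk1 averaged 22.3 CPM per kb, above Clk2 (15.2) and Clk4 (13.9), whose ranges of 14.4 to 15.9 and 11.1 to 15.8 CPM per kb overlapped, and Clk3 was lowest at 10 CPM per kb (9.07 to 11.2), overlapping Clk4. In Kira8+Stattic the order was Clk1 (106), Clk4 (43.7), Clk3 (28.2) and Clk2 (8.56 CPM per kb), with no overlap between neighbours. Kira8 gave 75.9 for Clk1, 28.9 for Clk4, 22.6 for Clk3 and 16.9 CPM per kb for Clk2, and Stattic gave 97.2, 37, 24.1 and 6.53 CPM per kb in the same order. The length is that of all annotated exons of a gene, which overstates the length of any single transcript.

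The 10 SR proteins did not move together. In Kira8 1 rose and 4 fell, in Stattic 2 rose and 4 fell, and in Kira8+Stattic 2 rose and 4 fell. The shares called were 50%, 60% and 60%, beside 35.7%, 57% and 59.8% of genes of similar level, and with 10 genes nothing particular to the class is read from them. Srsf1, also called SF2 or ASF, an activator of exon inclusion, had 493 and 500 CPM in Kira8, 305 and 311 CPM in Stattic, and 317, 309 and 315 CPM in Kira8+Stattic, against 617, 943 and 882 CPM in None. Every treated library was lower than every None library, and the 5 libraries with Stattic lay within 305 to 317 CPM. Srsf1 fell by 0.71 ± 0.18 on the log2 scale in Kira8, 1.40 ± 0.19 in Stattic (adjusted p = 1.38e-04) and 1.38 ± 0.16 in Kira8+Stattic (adjusted p = 4.39e-05). Its Kira8 call was lost without Kira8 replicate 1 (adjusted p = 0.136) or replicate 3 (adjusted p = 0.133), and those with Stattic held without any 1 library. Its log2 change over all 12 libraries was -1.21 in Kira8 (adjusted p = 0.572) and -1.95 in Stattic (adjusted p = 0.248), and the quality-weighted fit called it at -0.80 and -1.52.

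Srsf9, a short SR protein close to Srsf1, had 21.7 and 28.5 CPM in Kira8, 30.4 and 26.7 CPM in Stattic, and 30.6, 30.5 and 31.6 CPM in Kira8+Stattic, against 49.6, 44.7 and 43.1 CPM in None. It fell in all 3 comparisons, by 0.87 ± 0.17, 0.68 ± 0.16 and 0.57 ± 0.14. The Kira8 call was lost without Kira8 replicate 1 (adjusted p = 0.0777) and the Stattic call without Stattic replicate 3 (adjusted p = 0.0638). Srsf10, which in mammalian cells represses splicing when heat shock dephosphorylates it, had 228 and 242 CPM in Kira8, 184 and 230 CPM in Stattic, and 199, 190 and 202 CPM in Kira8+Stattic, against 255, 384 and 326 CPM in None. It fell by 0.64 ± 0.19 in Stattic and by 0.71 ± 0.16 in Kira8+Stattic, and the Stattic call ended without Stattic replicate 1 (adjusted p = 0.146) or None replicate 2 (adjusted p = 0.0501). With all 12 libraries the sign of Srsf9 in Kira8 (0.07) and of Srsf10 in Stattic (0.12) turned, and neither was called.

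Srsf11, an SR protein that contacts the early spliceosome, moved upwards. It had 416 and 411 CPM in Kira8, 359 and 492 CPM in Stattic, and 406, 511 and 503 CPM in Kira8+Stattic, against 223, 315 and 273 CPM in None. It rose in all 3 comparisons, by 0.61 ± 0.19, 0.65 ± 0.19 and 0.81 ± 0.18. The Kira8+Stattic call held in each fit without 1 library. The Stattic call did not hold without Stattic replicate 3 (adjusted p = 0.233), and the Kira8 call was lost in 7 of the 10 such fits, with adjusted p up to 0.197. Over all 12 libraries the values in Kira8 and Stattic were 0.16 and 0.37, not called, and 0.56 and 0.59, both called, with quality weights.

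Srsf6 and Srsf7 showed changes that differed by treatment. Srsf6, a repressor or activator depending on the exon, had 499 and 493 CPM in Kira8, 308 and 325 CPM in Stattic, and 405, 372 and 389 CPM in Kira8+Stattic, against 466, 534 and 543 CPM in None. It fell by 0.70 ± 0.15 in Stattic (adjusted p = 0.00264) and by 0.40 ± 0.13 in Kira8+Stattic, a call that ended in 6 of the 10 fits without 1 library. Srsf7, which also serves in mRNA export, had 237 and 241 CPM in Kira8, 286 and 292 CPM in Stattic, and 323, 318 and 342 CPM in Kira8+Stattic, against 314, 397 and 333 CPM in None. It fell by 0.54 ± 0.15 in Kira8, where the call ended without Kira8 replicate 1, Kira8 replicate 3 or None replicate 2 (adjusted p = 0.185, 0.178 and 0.0604), and it was not called in the other comparisons with None.

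Of the remaining SR genes, Srsf3, the smallest SR protein, was called higher in Stattic (0.43 ± 0.15) and Kira8+Stattic (0.45 ± 0.13), and Srsf2 lower in Kira8 (-0.52 ± 0.17). These 3 calls were each lost in some fit without 1 library, Srsf3 in Kira8+Stattic without replicate 1 (adjusted p = 0.0526) or replicate 3 (adjusted p = 0.0596) of that group. Srsf3 in Stattic was at -0.03 over all 12 libraries (adjusted p = 0.988), and with quality weights at 0.38 (adjusted p = 0.148). Srsf4 and Srsf5 were not called against None. Exons of another gene on the opposite strand cover 43% of the exonic length of Srsf4 and 15.6% of that of Srsf2, so their counts are uncertain. Per kilobase, Srsf2 was the most abundant SR transcript in None at 247 CPM per kb (217 to 280), followed by Srsf1 at 143 (108 to 165). The Srsf1 range overlapped those of Srsf5 (103 to 129), Srsf6 (96.9 to 113) and Srsf7 (88.4 to 112). Srsf9 was lowest at 27.7 (26.1 to 30), overlapping Srsf11 at 32 (26.4 to 37.3). Summed over the class, the SR genes held 3560 and 3690 CPM in Kira8, 3300 and 3610 CPM in Stattic, and 3770, 3700 and 3960 CPM in Kira8+Stattic, against 3650, 4680 and 4320 CPM in None, with overlapping groups.

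The TRA2 proteins, SR-like activators that bind GAA-rich exonic enhancers, both rose where Stattic was present. Tra2a had 273 and 285 CPM in Kira8, 376 and 378 CPM in Stattic, and 378, 419 and 424 CPM in Kira8+Stattic, against 188, 258 and 207 CPM in None. It rose by 0.79 ± 0.16 in Stattic (adjusted p = 0.00218) and by 0.90 ± 0.15 in Kira8+Stattic (adjusted p = 4.18e-04), and both calls held in each fit without 1 library. Its value of 0.36 ± 0.16 in Kira8 was not called, although both Kira8 libraries were above the None libraries. The 12-library Stattic value was 0.31 (adjusted p = 0.814), and 0.73 (adjusted p = 0.0107) with quality weights.

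Tra2b, the gene with the full heat shock element printed above, had 237 and 238 CPM in Kira8, 445 and 490 CPM in Stattic, and 471, 487 and 537 CPM in Kira8+Stattic, against 338, 380 and 290 CPM in None. The Kira8 libraries lay below None and all libraries with Stattic lay above it. Tra2b fell by 0.50 ± 0.16 in Kira8 (adjusted p = 0.0476), and rose by 0.48 ± 0.16 in Stattic (adjusted p = 0.0301) and by 0.57 ± 0.14 in Kira8+Stattic (adjusted p = 0.00685). The Kira8 call was lost in 8 of the 10 fits without 1 library and the Stattic call in 6, while the Kira8+Stattic call held in each. Tra2b over all 12 libraries was at -0.81 in Kira8 and 0.02 in Stattic, not called, and with quality weights at -0.48 (adjusted p = 0.0436) and 0.47 (adjusted p = 0.0597). In the windows used here Hnrnpa2b1, the other gene with the full element, was called in Stattic in the other direction (-0.46 ± 0.16), a call lost in 8 of those fits.

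**Figure D3:**
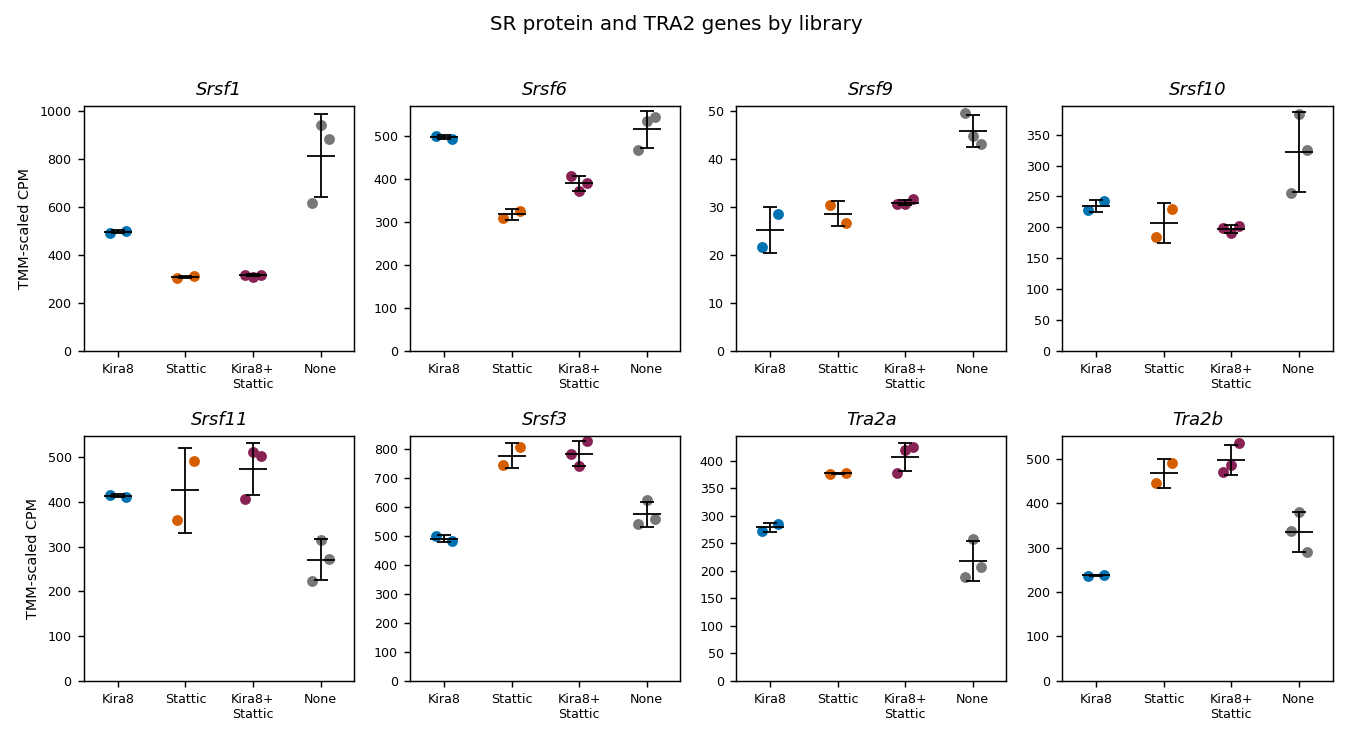
CPM of 6 SR genes and both TRA2 genes in each of the 10 libraries (linear axes from 0), with the 3 treated groups left of None, a line at each group's mean and bars of 1 SD. Srsf1 sits at 305 to 317 CPM in all libraries with Stattic, below 617 to 943 CPM in None, and Tra2b is lower in Kira8 (237 and 238 CPM) and higher with Stattic (445 to 537 CPM) than in None (290 to 380 CPM).

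Of the 19 hnRNP and PTB genes, 14, 8 and 11 were not called in Kira8, Stattic and Kira8+Stattic against None. In Kira8 0 rose and 5 fell, in Stattic 4 rose and 7 fell, and in Kira8+Stattic 3 rose and 5 fell. The shares called were 26.3%, 57.9% and 42.1%, beside 35.7%, 57% and 59.8% of genes of similar level, so the count was not particular to the class. Hnrnpl and Hnrnpc rose with Stattic. Hnrnpl, which binds CA-rich RNA, had 350 and 413 CPM in Kira8, 587 and 765 CPM in Stattic, and 693, 797 and 785 CPM in Kira8+Stattic, against 320, 355 and 410 CPM in None. It rose 1.87-fold in Stattic (log2 0.90 ± 0.17, adjusted p = 0.0016) and 2.1-fold in Kira8+Stattic (1.07 ± 0.16, adjusted p = 2.36e-04), with a value of 0.08 ± 0.18 in Kira8.

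Hnrnpc, which binds runs of U in nascent RNA, had 400 and 427 CPM in Kira8, 854 and 823 CPM in Stattic, and 649, 806 and 919 CPM in Kira8+Stattic, against 436, 506 and 411 CPM in None. The libraries with Stattic lay above all others, and Hnrnpc rose by 0.89 ± 0.17 in Stattic and 0.81 ± 0.16 in Kira8+Stattic. Hnrnph2, which binds runs of G, had 133 and 138 CPM in Kira8, 137 and 167 CPM in Stattic, and 188, 203 and 201 CPM in Kira8+Stattic, against 105, 124 and 112 CPM in None. It rose by 0.80 ± 0.13 in Kira8+Stattic (adjusted p = 5.39e-04) and by 0.41 ± 0.15 in Stattic, where the call was lost in 8 of the 10 fits without 1 library. Calls of Hnrnpl and Hnrnpc against None held in each of those fits. With all 12 libraries the Stattic values were 0.39 for Hnrnpl, 0.42 for Hnrnpc and 0 for Hnrnph2, not called, and quality weights gave 0.80, 0.86 and 0.37, with Hnrnph2 not called (adjusted p = 0.222).

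Hnrnpr and Hnrnpf fell in all 3 comparisons. Hnrnpr had 131 and 126 CPM in Kira8, 84.6 and 88.1 CPM in Stattic, and 110, 93.1 and 93.8 CPM in Kira8+Stattic, against 182, 222 and 182 CPM in None. It fell by 0.61 ± 0.15 in Kira8, 1.18 ± 0.16 in Stattic (adjusted p = 1.32e-04) and 0.98 ± 0.14 in Kira8+Stattic (adjusted p = 1.39e-04). Hnrnpf, a relative of Hnrnph2, had 411 and 441 CPM in Kira8, 400 and 388 CPM in Stattic, and 459, 385 and 427 CPM in Kira8+Stattic, against 685, 747 and 628 CPM in None. Its falls were 0.69 ± 0.15, 0.80 ± 0.15 and 0.70 ± 0.14, and all treated libraries lay below None. The Kira8 calls of both genes ended when either Kira8 replicate was left out, with adjusted p of 0.115 and 0.156 for Hnrnpr and of 0.113 and 0.0763 for Hnrnpf. Over all 12 libraries Hnrnpr was at -0.35 and -1.35 and Hnrnpf at -1.18 and -1.29 in Kira8 and Stattic, not called, and all 4 values were called with quality weights. Loci on the opposite strand overlap 13.5% and 13% of the exonic length of Hnrnpf.

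Hnrnpd, Hnrnpa0 and Hnrnpu had their lowest group means in Kira8. Hnrnpd, or AUF1, which binds AU-rich elements and speeds mRNA decay, had 181 and 193 CPM in Kira8, 319 and 280 CPM in Stattic, and 308, 289 and 302 CPM in Kira8+Stattic, against 309, 357 and 390 CPM in None. It fell by 0.91 ± 0.16 in Kira8 (adjusted p = 0.00192), a call that held in each fit without 1 library, and its values of -0.23 in Stattic and -0.23 in Kira8+Stattic were not called. Its Kira8 value over all 12 libraries was -1.39 (adjusted p = 0.439), and -0.98 (adjusted p = 0.00102) with quality weights. Hnrnpa0, another binder of AU-rich RNA, had 161 and 173 CPM in Kira8, 249 and 204 CPM in Stattic, and 222, 226 and 259 CPM in Kira8+Stattic, against 343, 331 and 272 CPM in None.

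Hnrnpa0 fell by 0.92 ± 0.17 in Kira8, by 0.48 ± 0.17 in Stattic and by 0.42 ± 0.15 in Kira8+Stattic. The 12-library values in Kira8 and Stattic were -1.24 and -1.01, not called, and quality weights gave -0.88, called, and -0.50, not called (adjusted p = 0.0746). Without Kira8 replicate 1 its adjusted p in Kira8 was 0.0505, and in each of the other comparisons its call ended in 6 of the 10 fits without 1 library. Hnrnpu, also called SAF-A, a nuclear scaffold protein, had 753 and 861 CPM in Kira8, 801 and 1100 CPM in Stattic, and 912, 1010 and 1080 CPM in Kira8+Stattic, against 1050, 1560 and 1340 CPM in None. It fell by 0.70 ± 0.21 in Kira8, where the call ended in 5 of the 10 fits, among them without None replicate 2 (adjusted p = 0.0849).

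Of the other hnRNP and PTB genes, Hnrnpm (-0.71 ± 0.16), Hnrnpul1 (-0.53 ± 0.16), Hnrnpk (-0.49 ± 0.16) and Hnrnpa2b1 were called lower and Ptbp3 (0.59 ± 0.18) higher in Stattic. In Kira8+Stattic Hnrnpm (-0.53 ± 0.14) and Hnrnpul1 (-0.52 ± 0.14) were called lower. Of these 7 calls, that of Hnrnpm in Stattic held in each fit without 1 library. Exons of March2 on the same strand cover 14.7% of the exonic length of Hnrnpm. Hnrnpa1, Hnrnph1, Hnrnph3, Hnrnpll and Ptbp1 were not called against None.

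Hnrnpa3 was not called in any comparison, and its spread within groups was wide. It had 190 and 204 CPM in Kira8, 264 and 310 CPM in Stattic, and 278, 99.7 and 359 CPM in Kira8+Stattic, against 172, 57.7 and 181 CPM in None. Replicate 2 was the low library in both groups where it entered the fit. Per kilobase, Hnrnpa1 was the most abundant of the 42 in None at 275 CPM per kb (246 to 319), overlapping Srsf2, which in turn overlapped Hnrnpf at 225 (206 to 245) and Hnrnpa2b1 at 207 (180 to 237). Hnrnpr was the lowest at 8.80 CPM per kb (8.20 to 10), overlapping Clk3. Close relatives in this class share sequence, so the split of reads between them is uncertain.

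**Figure D4:**
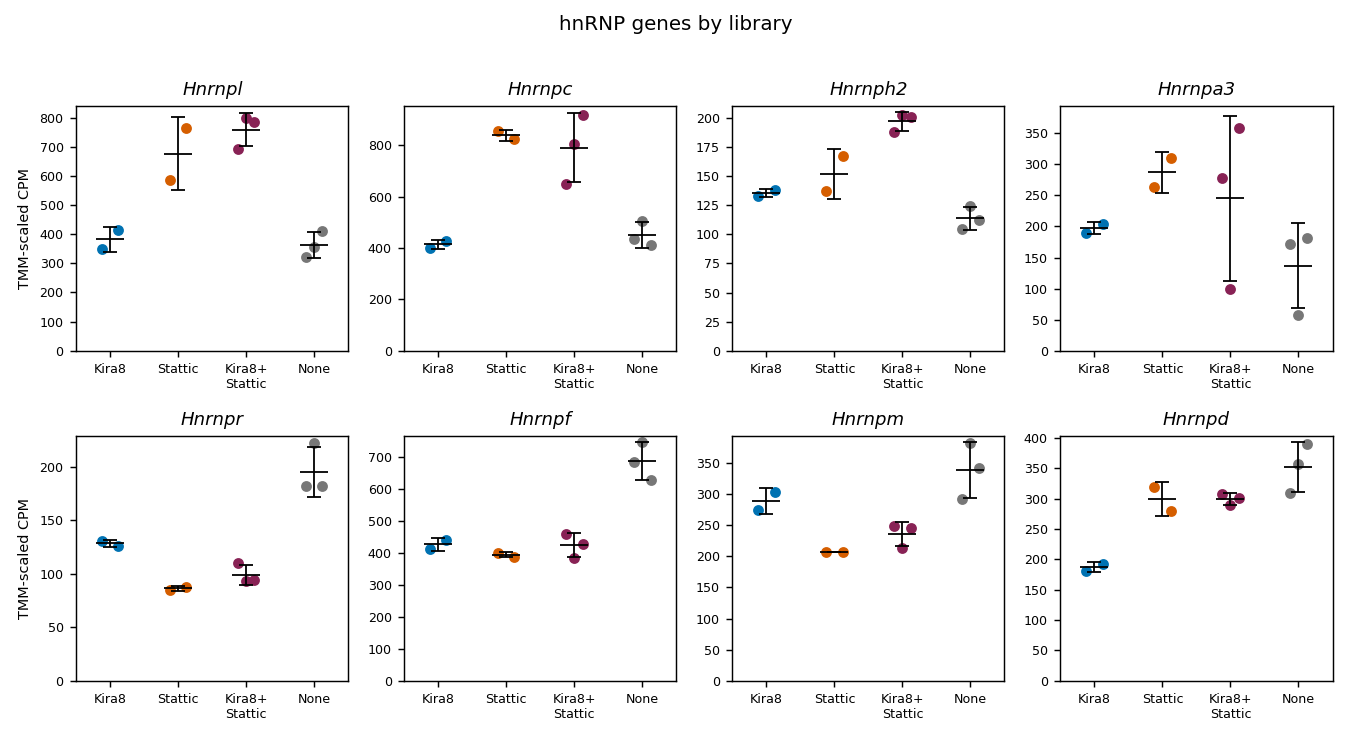
CPM of 8 hnRNP genes in each of the 10 libraries (linear axes from 0), with the 3 treated groups left of None, a line at each group's mean and bars of 1 SD. Hnrnpl and Hnrnpc sit at 587 to 919 CPM in the libraries with Stattic and at 320 to 506 CPM in None, Hnrnpd is lowest in Kira8 at 181 and 193 CPM, and Hnrnpr is at 84.6 to 131 CPM in treated libraries and 182 to 222 CPM in None.

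The SR-related proteins carried few calls against None. In Kira8 1 of the 7 rose and 0 fell, in Stattic 0 rose and 1 fell, and in Kira8+Stattic 1 rose and 1 fell. The shares called were 14.3%, 14.3% and 28.6%, beside 35.7%, 57% and 59.8% of genes of similar level. Among all genes tested they were 19.3%, 39% and 40.8%. With 7 genes nothing particular to the class is read from them. Rbm39, a coactivator of splicing related to U2AF, had 730 and 768 CPM in Kira8, 506 and 484 CPM in Stattic, and 537, 536 and 541 CPM in Kira8+Stattic, against 334, 435 and 451 CPM in None. It rose by 0.88 ± 0.16 in Kira8 (adjusted p = 0.00254) and by 0.40 ± 0.14 in Kira8+Stattic (adjusted p = 0.0413), and the second call was lost in 8 of the 10 fits without 1 library. With all 12 libraries the Kira8 value was 0.35 (adjusted p = 0.917), and 0.79 (adjusted p = 0.0136) with quality weights.

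Luc7l, which is related to a yeast component of the U1 snRNP, had 160 and 184 CPM in Kira8, 73.8 and 79.7 CPM in Stattic, and 92.6, 86.6 and 89.1 CPM in Kira8+Stattic, against 109, 176 and 169 CPM in None. It fell by 0.98 ± 0.20 in Stattic (adjusted p = 0.00224) and by 0.76 ± 0.17 in Kira8+Stattic (adjusted p = 0.00409), and all libraries with Stattic lay below all others. The 12-library Stattic value was -1.40 (adjusted p = 0.264), and -1.07 (adjusted p = 0.00214) with quality weights. Son and Srrm2, scaffold proteins of nuclear speckles, were not called against None. Srrm2 had 1660 and 1910 CPM in Kira8, 646 and 1020 CPM in Stattic, and 1130, 965 and 866 CPM in Kira8+Stattic, against 723, 1220 and 1390 CPM in None, with None spread over most of that range. Srrm1, Luc7l2 and Luc7l3 were also not called, and a locus on the opposite strand covers 18.9% of the exonic length of Luc7l2.

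Stattic and Kira8 alone differed from each other at 16 of the 42 genes, 6 higher and 10 lower in Stattic, or 38.1%, beside 28.7% of all genes (13.7% higher, 15.1% lower) and 44% of genes of similar level. The widest difference was that of Clk2, lower in Stattic by 1.37 ± 0.16 on the log2 scale (adjusted p = 1.64e-04). Luc7l was lower in Stattic by 1.16 ± 0.22, and Tra2b and Hnrnpc were higher by 0.98 ± 0.18 and 1.02 ± 0.19. These 4 calls held in each fit without 1 library and the other 12 did not. Clk1, Clk3 and Clk4 differed by 0.36 ± 0.20, 0.09 ± 0.17 and 0.36 ± 0.21 and were not called, which does not show that the 2 inhibitors act alike on them.

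Kira8+Stattic against Kira8 gave a similar set of differences, from the same Kira8 libraries. Of the 42 genes, 12 were higher and 8 lower in Kira8+Stattic, 47.6%, beside 30.7% of all genes (14.7% higher, 16% lower) and 47.4% of genes of similar level, and scaling by library size alone gave 7 higher and 10 lower. Tra2b (1.07 ± 0.16), Hnrnpl (0.99 ± 0.18) and Hnrnpc (0.94 ± 0.18) were higher and Clk2 (-0.98 ± 0.14) and Luc7l (-0.94 ± 0.19) lower, and these 5 calls held in each fit without 1 library. Hnrnpll, a regulator of CD45 exons in T cells, had 146, 205 and 209 CPM in Kira8+Stattic against 91.2 and 91.5 CPM in Kira8, a log2 difference of 1.03 ± 0.23 (adjusted p = 0.00592) that was lost without Kira8 replicate 1 (adjusted p = 0.0537) or 3 (adjusted p = 0.0563).

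Kira8+Stattic against Stattic called 0 of the 42 genes, beside 0.0141% of all genes (0.00942% higher, 0.00471% lower). At an unadjusted p below 0.05 edgeR gave 3 of the 42, and DESeq2 and limma voom called 0. The log2 differences of the CLKs were 0.13 ± 0.19 for Clk1, 0.39 ± 0.15 for Clk2, 0.23 ± 0.16 for Clk3 and 0.24 ± 0.19 for Clk4.

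The Kira8 change in the presence of Stattic differed from that in its absence at 7 of the 42 genes, 16.7%, beside 8.52% of all genes (4.55% above 0, 3.97% below) and 16.6% of genes of similar level. This interaction is the difference between Kira8+Stattic and Stattic minus that between Kira8 and None. It was -1.64 ± 0.26 for Clk1 (adjusted p = 0.00427) and -0.95 ± 0.22 for Clk3 (adjusted p = 0.0235), genes that rose in Kira8 alone. It was 0.98 ± 0.23 for Srsf9, 0.98 ± 0.23 for Hnrnpa0, 0.91 ± 0.22 for Hnrnpd, 0.80 ± 0.22 for Hnrnpr and 0.79 ± 0.22 for Hnrnpf, genes that fell in Kira8 alone. The Clk1 call held in each fit without 1 library, and the other 6 were lost in 4 to 8 of the 10. For Clk4 the value was -0.81 ± 0.27 and was not called (adjusted p = 0.0848).

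**Figure D5:**
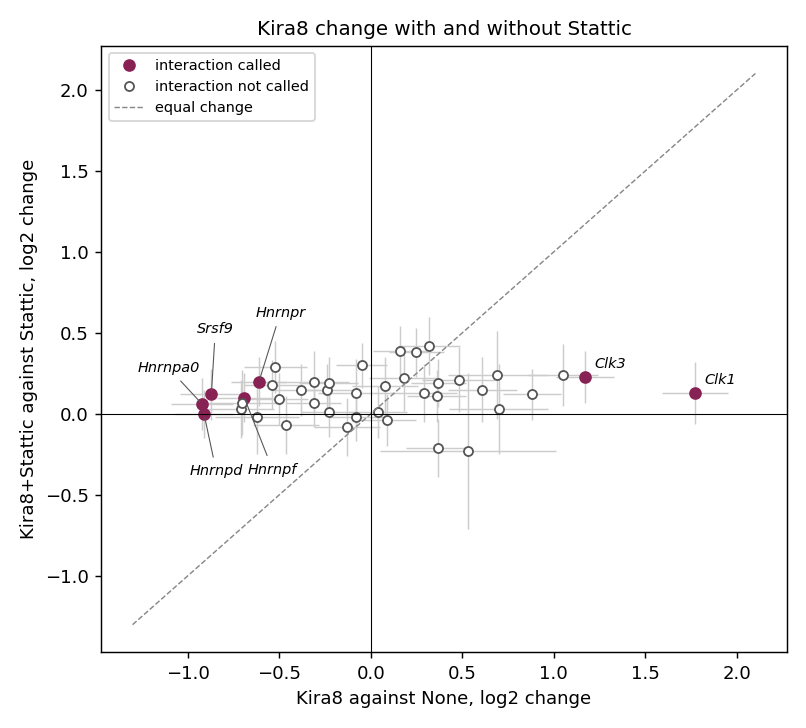
Log2 change with Kira8 in the absence of Stattic (Kira8 against None, horizontal) and in its presence (Kira8+Stattic against Stattic, vertical) for the 42 genes, with bars of 1 SE and a dashed line of equal change. Clk1 is at 1.77 and 0.13, Clk3 at 1.17 and 0.23 and Hnrnpd at -0.91 and 0, and the 7 genes with a called interaction are filled and named.

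The other 116 splicing genes examined, covering snRNP proteins, helicases, exon junction and decay factors and further regulators, had more genes called lower than higher against None. In Kira8 10 rose and 25 fell, in Stattic 13 rose and 50 fell, and in Kira8+Stattic 15 rose and 47 fell. The shares called were 30.2%, 54.3% and 53.4%, above the 19.3%, 39% and 40.8% of all genes and below the 35.7%, 57% and 59.8% of genes at or above the level of Srsf9. Their median log2 changes were -0.16, -0.28 and -0.24, against 0, 0.08 and 0.09 over all genes. Over all genes 9.7% were higher and 9.59% lower in Kira8, 20.1% and 18.9% in Stattic, and 20.8% and 20% in Kira8+Stattic. Shares by direction were not taken among genes at or above the level of Srsf9. In Stattic the share called in the lists below ran from 40% to 83.3%. It was 57% among genes at or above the level of Srsf9, a floor these lists were not held to. Most of these lists are small, and nothing particular to a complex is read from their counts. Of the 14 genes of the U2 snRNP and U2AF, which define the branch site and the end of the intron, 1 rose and 8 fell in Stattic. Sf3b1 was the gene that rose, by 1.95 ± 0.22 in Stattic and by 0.89 ± 0.22 in Kira8, and Sf3b3, of the same SF3b complex, fell by 1.11 ± 0.21 in Stattic.

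In the tri-snRNP that forms the catalytic spliceosome, 7 of 12 genes fell and 1 rose in Stattic. Prpf31, which holds the U4/U6 pair in the complex, fell by 1.18 ± 0.20 in Kira8 and by 1.70 ± 0.20 in Stattic, and Eftud2, a GTPase of the U5 snRNP, fell by 0.93 ± 0.21 and 1.37 ± 0.21. In the 8 genes of the complex around Prpf19 1 rose and 3 fell in Stattic, with Syf2 higher by 1.38 ± 0.15 and Prpf19 itself, a ubiquitin ligase, lower by 1.37 ± 0.17. Of 10 helicases and step factors 0 rose and 4 fell, led by Aqr at -1.47 ± 0.17. Of 10 Sm and U1 snRNP genes 2 rose and 3 fell in Stattic, and 1 rose and 5 fell in Kira8, where Snrpa fell by 0.95 ± 0.15.

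Among 6 kinases and importers of SR proteins, 2 rose and 3 fell in Stattic. Dyrk1a, a kinase of splicing factors related to the CLKs, rose by 1.45 ± 0.20 in Stattic, and Srpk2, a cytoplasmic kinase of SR proteins, rose by 1.23 ± 0.16 in Kira8 and 0.89 ± 0.16 in Stattic. Tnpo3, which imports phosphorylated SR proteins, fell by 0.96 ± 0.19 in Stattic. Of 9 exon junction genes 1 rose and 5 fell in Stattic and 0 rose and 5 fell in Kira8, where Magohb fell by 1.57 ± 0.24. Of 10 genes of nonsense-mediated decay 1 rose and 3 fell in Stattic, with Upf2 higher by 1.03 ± 0.15 and Upf1, the helicase of the pathway, lower by 0.88 ± 0.18. In the 37 other regulators 4 rose and 14 fell in Stattic, with Mbnl2 higher by 1.47 ± 0.18 and Syncrip, the closest relative of Hnrnpr, lower by 1.30 ± 0.19.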

How the data were processed

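RNA-seq read counts per gene (unnormalized, 12 libraries, mm10) were deposited by the authors, and the build is given per the submitters' processing notes. No source used here gives the aligner, counter or strand setting. Genes were matched by Ensembl ID to GENCODE symbols (GRCm38), and 260 rows without a symbol stayed in the fit. The 42 genes and the other lists were chosen with earlier results of these data known.

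A single edgeR 4.0.16 model (R 4.3.3, filterByExpr, TMM, glmQLFit and glmQLFTest) was fitted to 10 libraries with 4 groups. Replicate 2 of Kira8 and of Stattic was left out because it stood apart. 7 comparisons were tested, each with Benjamini-Hochberg adjustment over 21239 genes. CPM are TMM-scaled for the 10 libraries and use the library total alone for the outlying pair, and SE is the log2 change divided by the square root of F. The script was tested on simulated data. No 2 libraries of a group agreed within sampling noise (lowest chi-square per gene 32.8). At these depths 3 counts correspond to 0.0349 to 0.0581 CPM in the 10 libraries, and the 42 genes were far above that.

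Genes named with values in every library were the up to 4 called genes of each class with the largest change against None, and up to 3 genes of each further list with the smallest adjusted p. Hnrnpa3, Srrm2 and Hnrnpll were added after their values were seen. 1 T cell marker of the list is not reported here. Alternatives were DESeq2 1.42.0, limma 3.58.1 voom, other scalings and filters, a replicate block, a test against a 1.5-fold change, fits of the groups compared alone, all 12 libraries, and leaving out each library in turn.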

Additional observations from a re-analysis of the deposited data

Results flagged for a closer look

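The 7 genes below were picked out because the Kira8 change with Stattic differed from that without it (edgeR interaction, Benjamini-Hochberg adjusted over all genes). The log2 difference was -1.64 for Clk1 and -0.95 for Clk3. It was 0.98 for Srsf9, 0.98 for Hnrnpa0, 0.91 for Hnrnpd, 0.80 for Hnrnpr and 0.79 for Hnrnpf.

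In all 7 the Kira8 change was called without Stattic and not called with it. Kira8+Stattic against Stattic called 3 of all 21239 genes and 0 of the 5620 genes of similar level. Not being called with Stattic was therefore all but fixed beforehand and is no trait of these 7. The interaction by which they were picked contains the Kira8 change, and it was called at 16.6% of genes of similar level. Hnrnpd had 308, 289 and 302 CPM in Kira8+Stattic against 319 and 280 CPM in Stattic, and 181 and 193 CPM in Kira8 against 309, 357 and 390 CPM in None. The Clk1 call was kept in all 10 fits that left out 1 library. Without Kira8 replicate 1 the adjusted p was 0.0834 for Clk3, 0.143 for Srsf9, 0.13 for Hnrnpa0, 0.137 for Hnrnpd, 0.148 for Hnrnpr and 0.194 for Hnrnpf. Without Stattic replicate 3 it was 0.101, 0.0985, 0.115, 0.113, 0.114 and 0.141 in the same order. Each of the 6 calls was also lost without Kira8+Stattic replicate 2. In the 12-library fit the sign of Srsf9 and of Clk3 turned.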

How the results depend on the processing

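Counts of called genes among the 42 are given in the order Kira8, Stattic and Kira8+Stattic against None, Kira8+Stattic against Kira8, Stattic against Kira8, and the interaction, with 15, 24, 22, 20, 16 and 7 in the 10-library fit. All 12 libraries in edgeR gave 0 in each, and the sign turned for Srsf9 in Kira8 (0.07), Srsf3 (-0.03) and Srsf10 (0.12) in Stattic, Rbm39 between Kira8+Stattic and Kira8 (0.04), and Srsf9 (-0.29) and Clk3 (0.08) in the interaction. The cause was not tested, and the common dispersion was 1.01 against 0.143. Testing against a 1.5-fold change gave 2, 7, 7, 3, 4 and 1. Among all 21239 genes that test gave 1359, 4865, 5018, 2912, 2872 and 461. A fit of the groups compared alone gave 14 in Stattic against None, beside 6735 of all 19261 genes tested. DESeq2 gave 15 in the interaction, beside 3244 of all 15373 genes tested. Leaving out 1 library gave 5 to 15, 14 to 26, 18 to 23, 5 to 22, 5 to 18 and 1 to 12. Where this left a group with 1 library, that library was assumed to vary like the other groups. The number of calls among all genes also changed from fit to fit. Kira8+Stattic against Stattic gave 0 in all of these. The other scalings, filters and tools stayed within 1.5 times the counts above.

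The labels do not say that same-numbered libraries are pairs, and the main fit did not treat them as such. Deviations of same-numbered libraries from their group means correlated at -0.13 to 0.36 over 13 pairs, 11 of them over 0.1. Pairs with different numbers ran from -0.36 to 0.3, with 2 of 24 over 0.1. Deviations within a group offset each other, so these pairs are not independent. Of 10 libraries, 8 correlated best with their own number, a hint of pairing from the data alone. A replicate block gave 14, 25, 26, 19, 17 and 6 calls, and 0 in Kira8+Stattic against Stattic. Among all 21239 genes the block gave 4423, 8062, 8947, 6660, 6519 and 1784, and 4 in Kira8+Stattic against Stattic. The split was then 14 higher and 11 lower in Stattic, 15 and 11 in Kira8+Stattic, and 3 and 3 in the interaction. Calls lost under the block were Srsf2 and Tra2b in Kira8, Hnrnpa0 and Hnrnpa2b1 in Stattic, Srsf7 and Hnrnpa0 between Kira8+Stattic and Kira8, and Hnrnpf and Hnrnpr in the interaction. Calls gained were Son in all 3 comparisons with None, Hnrnpa3 and Hnrnpll in both with Stattic, Ptbp3 in Kira8+Stattic, Hnrnpa3 in both comparisons with Kira8, and Clk4 in the interaction.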
